A study of Drosophila melanogaster with 2 samples.

Results

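The ecdysteroid synthesis genes were followed through the Ftz-F1 peak lists of the series as 10 named genes out of 13945 protein-coding genes on the chromosome arms. They comprised 8 enzyme genes in pathway order (nvd, spo, spok, sro, phm, dib, sad and shd) and 2 regulator genes (mld and ecd). Each gene was taken with its body plus 2000 bp upstream, called its window here, and every peak summit inside that window was counted, without regard to where a signal was found. The peaks came from chromatin immunoprecipitation sequencing of whole Drosophila melanogaster embryos of both sexes, collected from 0 to 24 h, from a transgenic line in which Ftz-F1 carries green fluorescent protein at its C-terminus and is precipitated through that tag. There was 1 group with 2 libraries, labelled biological replicates 1 and 4, and no embryos of a second genotype, treatment or age. Neither library separates the tissues of the embryo, so a site bound strongly in few cells and one bound weakly in many cannot be told apart.

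Ecdysteroids are the steroid hormones that time moulting and metamorphosis in insects. They are built from dietary sterol by enzymes that include those of the Halloween genes, whose mutant embryos die with defective cuticle. In the larval prothoracic gland these enzymes make ecdysone, which shd converts to the active hormone in peripheral tissues. Ftz-F1 is an orphan nuclear receptor that binds DNA as a monomer at an extended half-site, and in the larval gland its loss is known to lower the enzymes made by phm and dib.

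Both regulator genes held peaks of the authors' reproducible list, and none of the 8 enzyme genes did. That list, called the IDR list here after the irreproducible discovery rate, holds 3960 peaks, which are the 3960 strongest of the 30000 in the list called on both replicates pooled. Of the 10 genes, 2 held an IDR summit, against 26.1% of all protein-coding genes. Any pooled summit was held by 4 of the 10 (mld, ecd, shd and sro), against 69.1% of all protein-coding genes. In the list of replicate 1 the count was 3 of 10, against 69.8%, and in that of replicate 4 it was 5 of 10, against 70.2%. No summit of any of these lists lay in the windows of nvd, spo, spok, phm and dib. The numbers of members are small, these shares carry no test, and a gene without a listed peak is not shown to be unbound, because read depth is unknown.

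The sequences below are those around which the results turn: the IDR summits of mld and ecd, the strongest listed summit in the shd window, the IDR summit upstream of shd, and the IDR summit nearest to phm. Each reads 5′ to 3′ on the strand of the gene named, from the release 6 reference genome (dm6), and was cut from the 201 bases around the summit. A stretch that runs into the gene's own transcript ends 30 bases inside it, so that at the downstream start of mld the printed bases stop 17 bp short of the summit. Capitals mark GAGAGA, a motif of GAGA factor, on either strand, or the Ftz-F1 letters NCAAGGNCN with C or T at the first N and A or G at the last.
mld, intron summit, 3R:24586602-24586802, plus strand: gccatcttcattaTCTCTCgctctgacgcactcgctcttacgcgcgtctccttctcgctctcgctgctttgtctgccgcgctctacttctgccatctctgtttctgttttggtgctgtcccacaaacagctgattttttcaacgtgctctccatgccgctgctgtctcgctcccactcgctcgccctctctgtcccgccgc
mld, upstream flank of the summit at the downstream start, 3R:24589108-24589191, plus strand: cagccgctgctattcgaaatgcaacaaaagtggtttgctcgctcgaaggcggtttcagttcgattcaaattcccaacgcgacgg
ecd, promoter summit, 3L:2265828-2265990, minus strand: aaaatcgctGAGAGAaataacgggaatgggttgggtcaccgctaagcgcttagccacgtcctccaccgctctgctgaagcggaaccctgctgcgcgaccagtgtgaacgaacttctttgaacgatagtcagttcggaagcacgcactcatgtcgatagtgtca
shd, upstream summit below the IDR list, 3L:14613425-14613625, plus strand: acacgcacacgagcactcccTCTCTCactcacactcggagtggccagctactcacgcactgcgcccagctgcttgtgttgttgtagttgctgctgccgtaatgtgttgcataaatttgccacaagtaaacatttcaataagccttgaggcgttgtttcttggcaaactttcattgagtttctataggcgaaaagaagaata
shd, upstream IDR summit outside the window, 3L:14609492-14609692, plus strand: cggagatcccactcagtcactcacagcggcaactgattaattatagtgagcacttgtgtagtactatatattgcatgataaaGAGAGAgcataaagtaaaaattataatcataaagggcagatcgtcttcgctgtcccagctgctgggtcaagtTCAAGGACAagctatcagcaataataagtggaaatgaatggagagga
phm, nearest IDR summit, X:18700760-18700960, plus strand: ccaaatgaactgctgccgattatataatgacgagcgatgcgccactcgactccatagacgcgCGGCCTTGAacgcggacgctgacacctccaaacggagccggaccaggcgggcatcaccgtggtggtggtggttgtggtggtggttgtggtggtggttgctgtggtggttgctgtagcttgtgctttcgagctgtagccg

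No summit inside a member window had the full Ftz-F1 consensus in the 201 bases searched around it, whether printed above or not. The consensus was written as NCAAGGNCN with C or T at the first and second N and A or G at the last, and was sought on both strands within 100 bp of the summit. It was found at 0 of the 37 pooled summits in the members' windows, against 6.54% of the 3960 IDR summits and 3.43% of the 29999 pooled summits on the arms. A count of 0 would allow a share of up to 8.11% at the 95% level if the 37 were independent draws. With 26 of the 37 in mld alone they are not, so no limit is read from this count. The shorter AAGGNCN, with C or T at the first N and A or G at the last, was found at 18.9% of the members' pooled summits, or 7 of 37, against 18.5% of all IDR summits and 12.7% of all pooled summits. Of those 7, 5 were in mld, 1 was in shd and 1 was in ecd, and none was one of the members' IDR summits. The promoter letters TATCGATA, of the factor DREF, and GGTCACACT, of the factor M1BP, were found at none of the 37. GAGAGA was found at 3 of the 37 (8.11%), against 15.7% of all IDR summits and 11.0% of all pooled summits. These 3 were the intron summit of mld, the promoter summit of ecd and the upstream summit of shd printed above. GAGAGA was searched for after printed sequences had been seen, so its presence in them lends it no weight.

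mld (molting defective, FBgn0263490, 3R:24585653-24623899, plus strand) encodes a nuclear zinc finger protein needed for transcription of early enzyme genes of the pathway in the gland. It held 2 IDR summits and 26 pooled summits, the most of any member. The stronger IDR summit, at 3R 24586702, lay in an intron 1049 bp into the gene. Its signal value, the authors' own measure on an unstated scale, was 122.7 in the pooled list, or 0.934 times the IDR median, with rank 2295. The peak had rank 3191 and signal value 53.9 in replicate 1, and rank 2184 and signal value 67.5 in replicate 4. Both libraries thus placed it within their strongest 3960 peaks, and of the members' 3 IDR summits it was the one for which both did.

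The other IDR summit of mld, at 3R 24589208, lay 46 bp from the second annotated transcript start of the gene, 2506 bp downstream of the first summit. Its pooled rank was 3091 and its signal value 105.2, which is 0.801 times the IDR median. It had rank 5973 and signal value 38.2 in replicate 1, against rank 2148 and signal value 68.4 in replicate 4. Ranks were set side by side because both replicate lists hold 30000 peaks, but the same rank need not mean the same strength in both. The highest −log10 q-value of each list was shared by 5060 peaks in replicate 1 (4.01) and 7579 in replicate 4 (4.18). Signal values were compared only within a list.

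The remaining 24 pooled summits of mld lay below the IDR list and ran along the gene as far as 35034 bp from its start. Of all 26, 20 were in introns, 3 in promoters and 3 in coding exons. Their signal values ranged from 18.6 to 122.7 with a median of 31.4. The strongest below the IDR list lay 23657 bp into the gene, in an intron, with pooled rank 5872 and signal value 72.2, and the nearest protein-coding start, 16252 bp away, was that of Syx18. The libraries differed on it: it was rank 3234 in replicate 1 and rank 17045 in replicate 4. The next, 17928 bp into the gene, had pooled rank 6686 and was placed alike by the libraries, at rank 7179 in replicate 1 and 7097 in replicate 4. A replicate summit lay within 100 bp of 18 of the 26 in replicate 1, of 16 in replicate 4, and of 9 in both. Outside the window, 2787 bp upstream of mld, lay a promoter summit of pooled rank 2933 and signal value 108.3, which is within the IDR list. Its nearest protein-coding start was that of REPTOR, and it had rank 4880 in replicate 1 and 2256 in replicate 4.

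The length of mld bears on these counts. Its window of 40247 bp was set beside the 380 protein-coding genes with windows of 30 to 50 kb, of which 51.3% held an IDR summit and 80.5% any pooled summit. Those genes held a median of 7 pooled summits (quartiles 1 and 16), so the 26 of mld lay above the upper quartile. Of the 380, 103 held at least 2 IDR summits, as mld did.

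**Figure D1:**
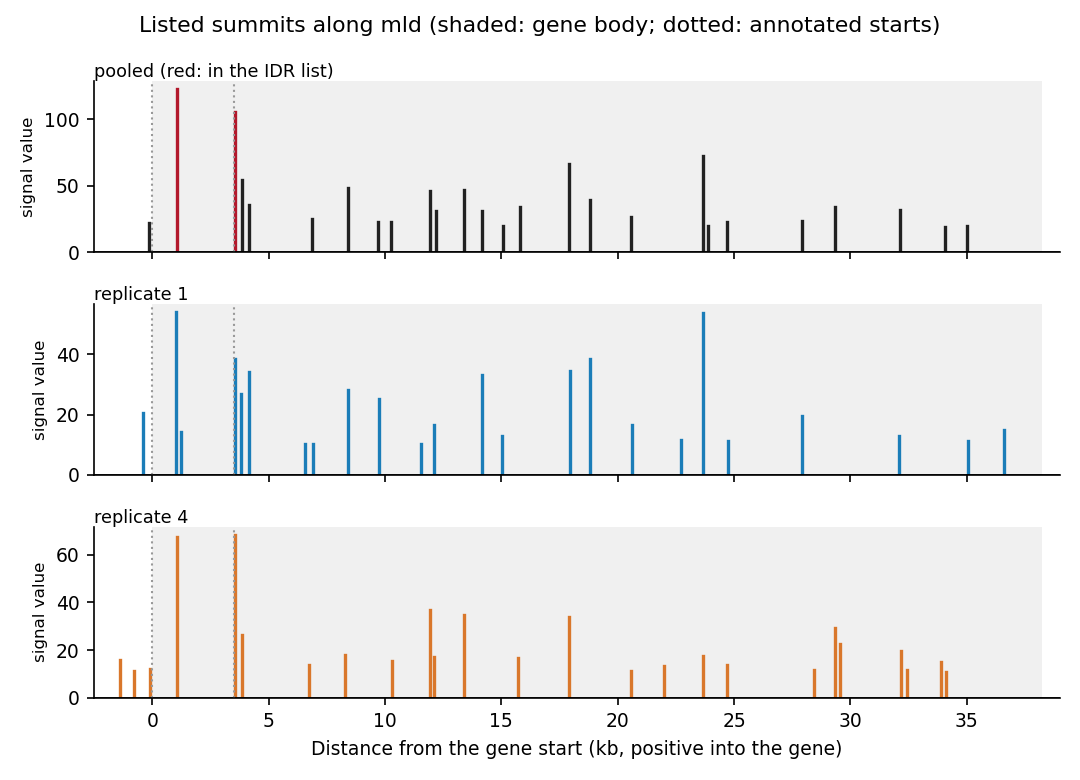
Signal value of every listed summit in the mld window (vertical lines) against distance from the gene start in kb, for the pooled list and each replicate, each on its own scale, with IDR peaks in red, the gene body shaded and both annotated starts dotted. The IDR summits stand at 1049 bp and 3555 bp, and the line at 23657 bp has signal value 53.6 on the scale of replicate 1 and 17.7 on that of replicate 4.

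ecd (ecdysoneless, FBgn0000543, 3L:2263581-2265857, minus strand) encodes a conserved protein needed for ecdysteroid production in the gland and known also for a part in splicing. Its IDR summit, at 3L 2265890, lay in the promoter, 33 bp upstream of the gene start. In the pooled list it had rank 2387 and signal value 120.4, which is 0.917 times the IDR median. The libraries ranked this peak further apart than the intron peak of mld: rank 5803 with signal value 38.8 in replicate 1, and rank 1580 with signal value 79.6 in replicate 4. The promoter is shared with CG13806, which runs the other way from a start 537 bp from that of ecd and 504 bp from the summit. A second pooled summit, in a coding exon 1307 bp into ecd, was among the weakest listed, with rank 28641 and signal value 19.2.

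Over all protein-coding genes, 17.2% had a best pooled rank equal to or better than that of mld, and 17.8% one equal to or better than that of ecd. Both ranks lay close to the lower quartile of 2304 among the 9638 genes with any pooled summit, whose best ranks had a median of 5777 and an upper quartile of 11704.

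**Figure D2:**
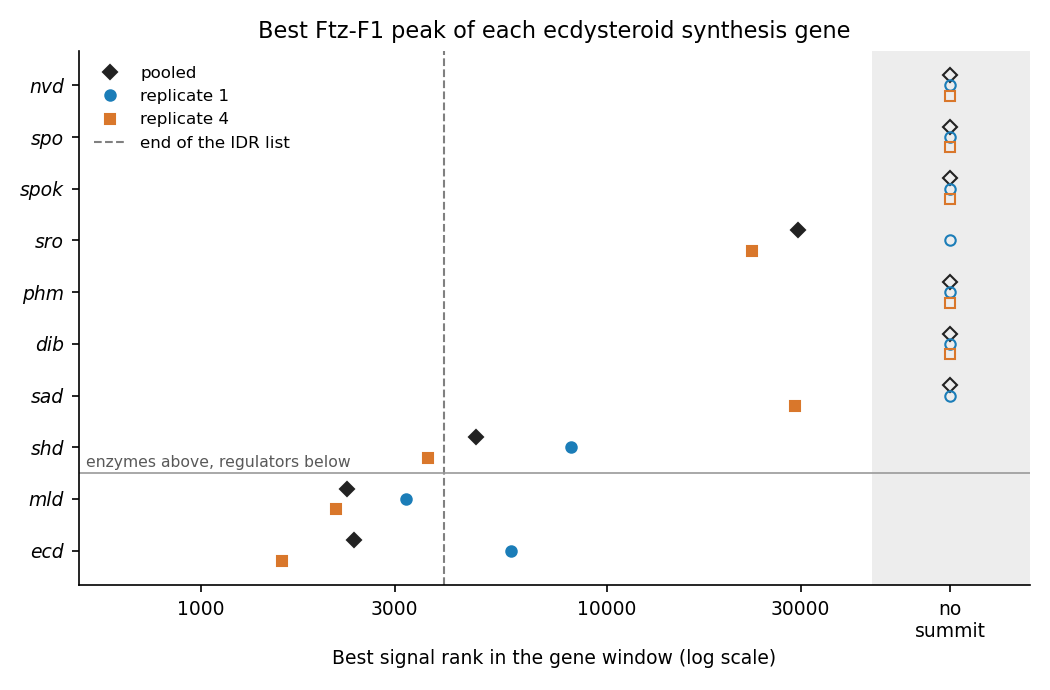
Best signal rank of each member in the pooled list and in each replicate list (log axis, lower is stronger), with open symbols in the grey zone where the window held no summit and a dashed line at rank 3960, the end of the IDR list. The pooled ranks of mld (2295) and ecd (2387) lie left of the line, shd follows at 4772, sro stands at 29504, and the other 6 enzymes have no pooled summit.

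Among the enzyme genes, shd came closest to the IDR list. shd (shade, FBgn0003388, 3L:14614458-14622205, plus strand) encodes the cytochrome P450 that turns ecdysone into the active hormone outside the gland. Its window held 7 pooled summits, and the strongest, 933 bp upstream of the gene in intergenic sequence, had rank 4772. That was 812 ranks beyond the end of the IDR list, and its signal value of 82.2 was 89.5% of the lowest IDR value. This peak had rank 8153 and signal value 31.5 in replicate 1, against rank 3634 and signal value 50.8 in replicate 4.

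Next came a summit in the 5′ UTR of shd, 2236 bp into the gene, with pooled rank 6641 and signal value 66.3, at rank 10106 in replicate 1 and 5780 in replicate 4. A summit 35 bp upstream of the start had pooled rank 7679 and signal value 60.2, at rank 18225 in replicate 1 and 5122 in replicate 4. These 3 were the pooled summits of shd that both replicate lists held within 100 bp, and each was ranked higher in replicate 4. The other 4 pooled summits, between ranks 18112 and 24118, lay in introns and promoters. Of all protein-coding genes, 30.3% had a best pooled rank equal to or better than that of shd.

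An IDR summit lay beyond the upstream edge of the shd window, at 3L 14609592, 4866 bp upstream of the start. It was intergenic, with pooled rank 2466 and signal value 118.6, at rank 1962 in replicate 1 and 3500 in replicate 4. Both libraries thus placed it within their strongest 3960 peaks, whereas replicate 4 alone did so for the summit 933 bp upstream. No protein-coding start was nearer to it than that of shd. It was the single IDR summit among 7 pooled summits in the gap of 14917 bp between shd and HGTX, the gene upstream. The sequence printed above for it holds TCAAGGACA, which has the form of the Ftz-F1 site apart from the second N of the consensus. Letters of that wider form, with any base there, were found at 8.61% of all IDR summits and 5.24% of all pooled summits. They were searched for after this sequence had been seen.

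**Figure D3:**
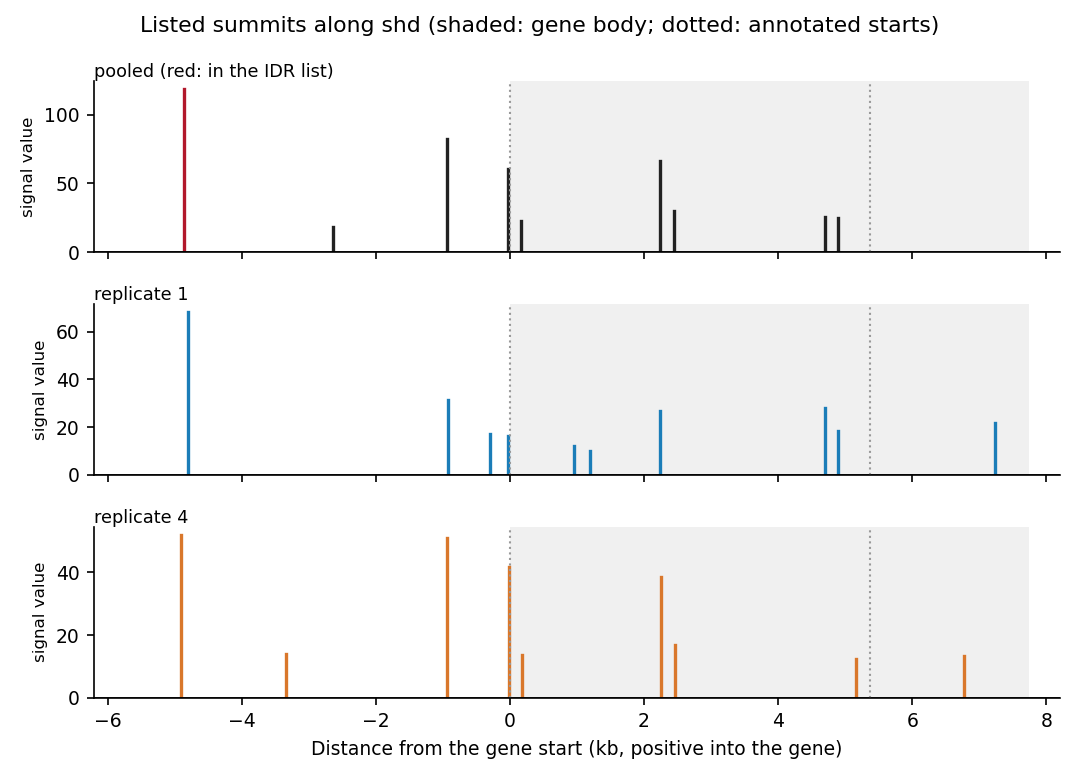
Signal value of every listed summit from 6 kb upstream of shd to its end against distance from the gene start in kb, for the pooled list and each replicate on separate scales, with the IDR peak in red, the gene body shaded and both annotated starts dotted. The IDR summit stands at -4866 bp, outside the 2000 bp upstream window, and the 3 summits that follow in strength are at -933, 2236 and -35 bp.

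The early enzymes showed little or nothing in the lists. sro (shroud, FBgn0262112, 3R:29794597-29795805, plus strand), a short-chain dehydrogenase of the early steps, held 2 pooled summits in its window, near the foot of the list. The summit 1725 bp upstream, inside a coding exon of the neighbouring gene kay, had rank 29504 and signal value 18.6, and neither replicate list held it within 100 bp. The summit 729 bp into sro, in its coding exon, had rank 29789 and signal value 18.4, with rank 22747 in replicate 4 and no counterpart in replicate 1. Of all protein-coding genes, 68.9% had a best pooled rank at least as good as that of sro. These weak peaks were close to the value of 18.2 at which the pooled list ends. A stronger one lay just outside the window, 2016 bp upstream of sro in a coding exon of kay, with pooled rank 14785 and signal value 35.9, at rank 12831 in replicate 4 and without a counterpart in replicate 1.

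nvd (neverland, FBgn0287185, 3L:24324866-24401655, plus strand), the oxygenase that takes cholesterol into the pathway, and spok (spookier, FBgn0086917, 3R:3322810-3354486, plus strand), a cytochrome P450 of the early steps used in the larval gland, had no summit in their windows or near them. The nearest pooled summit lay 295463 bp from the start of nvd, closest to the start of CG40045, and 427580 bp from that of spok, closest to the start of CG41128. Within 500 kb of the start, each had 1 pooled peak and 0 IDR peaks. All protein-coding genes had medians of 270 pooled peaks (quartiles 217 and 320) and 34 IDR peaks (quartiles 26 and 44) over that distance, and only 76 genes, or 0.545%, had 0 IDR peaks.

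At nvd and spok, a high repeat content of the window went with few peaks within 500 kb. Soft-masked repeats made up 43.4% of the nvd window and 51.6% of the spok window, against a median of 11.2% over all genes (quartiles 7.75% and 15.5%). Shares as high were found in 0.638% of genes for nvd and 0.337% for spok. The other members did not follow this order. Pooled summits were held by mld (17.5% masked), shd (17.2%), sro (14.3%) and ecd (2.64%), and by none of sad (10.1%), phm (8.80%), spo (6.93%) and dib (6.41%). The part of repeat content in the missing peaks was not tested.

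spo (spook, FBgn0003486, 3L:5590083-5592571, minus strand), the paralogue of spok that is used in the embryo, had 189 pooled and 23 IDR peaks within 500 kb, both below the lower quartiles of all genes, of which 16.1% had as few pooled and 19.7% as few IDR peaks. Its window is 6.93% masked. It held no summit in any list, and the nearest pooled summit was 7568 bp away, at rank 22054, by the start of CG10591. The coding sequences of spo (1629 bases) and spok (1659 bases) were identical at 988 of 1595 aligned bases (61.9%), with a longest shared run of 17 bp, so the genes are not near-identical copies.

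**Figure D4:**
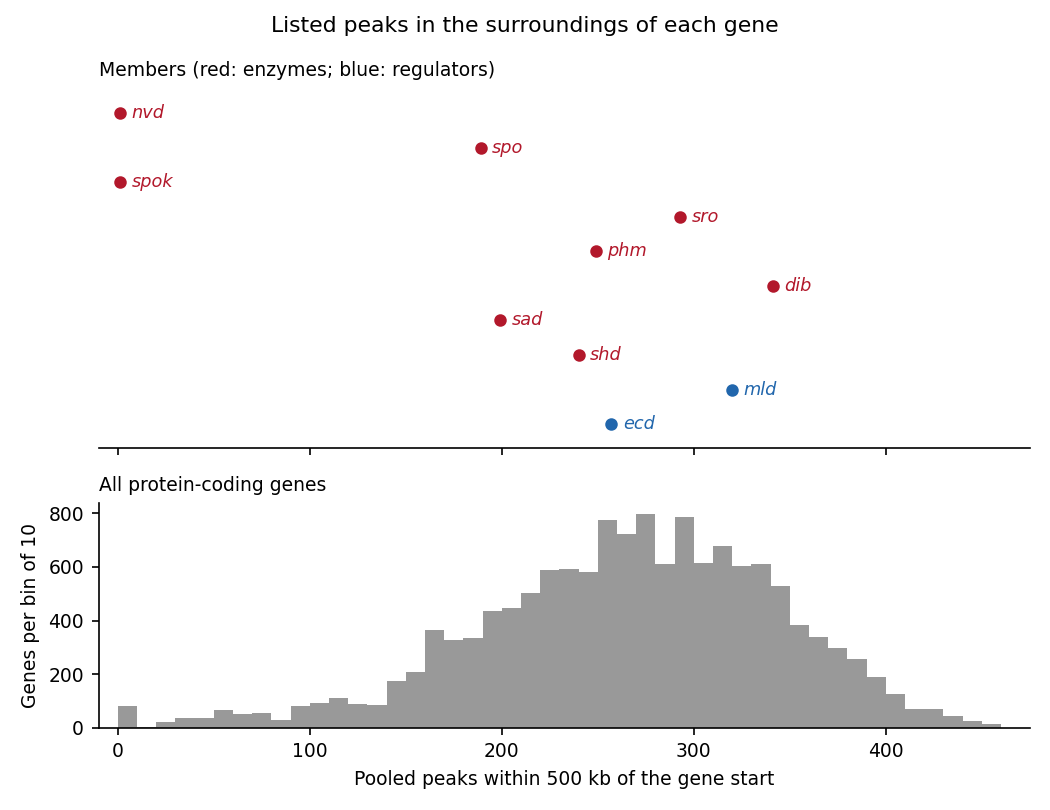
Number of pooled peaks within 500 kb of the gene start, for each member (upper part, enzymes in red and regulators in blue) and for all protein-coding genes (lower part, genes per bin of 10 peaks). nvd and spok stand at 1 peak each, whereas the other 8 members lie between 189 and 341, against quartiles of 217 and 320 for all genes.

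phm (phantom, FBgn0004959, X:18685766-18688433, plus strand; the annotation calls it phtm), dib (disembodied, FBgn0000449, 3L:4062292-4064551, plus strand) and sad (shadow, FBgn0003312, 3R:11877235-11879754, plus strand) encode the cytochrome P450 enzymes of the late hydroxylations in the gland. Neither phm nor dib held a summit in any of the lists. sad held a single summit, in replicate 4, 11 bp from its start, with rank 29082 and signal value 10.9, close to the end of that list of 30000. Their surroundings were not empty, with 249, 341 and 199 pooled peaks within 500 kb of phm, dib and sad.

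For phm the nearest pooled summit was 2010 bp upstream of the start, just outside the window, at rank 27597, and neither replicate list held it within 100 bp. The nearest pooled summit of dib was 6119 bp downstream of its start, in an intron of the neighbouring gene wit and nearest to the start of CG32259, at rank 14212. That of sad was 4291 bp upstream, in intergenic sequence, at rank 28124, where the nearest start was that of CG6959.

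The IDR summit nearest to phm lay 15094 bp downstream of its start at X 18700860, in intergenic sequence, with pooled rank 3047 and signal value 105.9, at rank 3624 in replicate 1 and 3313 in replicate 4. The closest protein-coding start, at 7818 bp, was that of Cyp18a1, the enzyme that inactivates ecdysteroids. Among the IDR summits nearest to each of the 10 genes, it was the one that held the full consensus, printed in capitals above on the minus strand. dib had its nearest IDR summit 9448 bp downstream, in the promoter of wit, a receptor of the BMP pathway, with pooled rank 3723, at rank 14456 in replicate 1 and 2686 in replicate 4. For sad the distance was 54757 bp, to a summit in the promoter of Kyat.

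The consensus was also sought in the members' windows, whether or not a peak was there. The 2 full matches lay in genes without any peak. The window of spok, also without a peak, held 1 match to CAAGGTCA, but without the C or T before it that the consensus needs. The match in nvd was in an intron, 11626 bp into the gene and 307089 bp from the nearest pooled summit. The match in spo was 1506 bp upstream, in a coding exon of the neighbouring gene Alp10, and 6062 bp from the nearest pooled summit. Windows with the consensus were common: of the 7940 protein-coding genes whose windows had the lengths of the 7 short members (3209 to 9748 bp), 29.6% held it. That share does not apply to nvd, whose window of 78790 bp is longer. Of the 7 short members (spo, sro, phm, dib, sad, shd and ecd), 1 held an IDR summit, against 26.7% of those 7940 genes, and 3 held any pooled summit, against 74.3%. The 2 full matches are printed in capitals with 15 bases on either side. They are followed by the 250 bases upstream of phm and dib, in which capitals mark AAGGNCN with C or T at the first N and A or G at the last.
nvd, intron site, 3L:24336473-24336511, minus strand: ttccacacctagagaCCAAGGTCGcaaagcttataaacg
spo, upstream site, 3L:5594058-5594096, minus strand: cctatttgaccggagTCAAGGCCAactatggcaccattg
phm, promoter, X:18685516-18685765, plus strand: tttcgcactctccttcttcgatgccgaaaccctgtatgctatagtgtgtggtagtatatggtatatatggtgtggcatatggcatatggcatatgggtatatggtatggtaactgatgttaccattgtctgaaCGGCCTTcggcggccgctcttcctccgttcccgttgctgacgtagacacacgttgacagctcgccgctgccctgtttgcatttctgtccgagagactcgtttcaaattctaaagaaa
dib, promoter, 3L:4062042-4062291, plus strand: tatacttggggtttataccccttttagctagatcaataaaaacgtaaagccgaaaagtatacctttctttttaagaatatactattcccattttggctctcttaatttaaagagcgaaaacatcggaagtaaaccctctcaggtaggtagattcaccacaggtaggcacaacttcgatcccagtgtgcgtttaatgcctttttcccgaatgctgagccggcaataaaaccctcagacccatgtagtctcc

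Neither promoter holds the consensus, and no member had it between 250 bases before and 50 bases after its start, a stretch of 300 bases that holds it in 0.746% of all protein-coding genes. The shorter form was found there in phm and spo, and in 7.14% of all protein-coding genes.

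A list of 20 other genes of the pathway, assigned to 4 roles, was read in the same way. Of these, 6 held an IDR summit (30%), which is close to the 26.1% of all protein-coding genes, and 15 held any pooled summit (75%), which is close to 69.1%. All 6 were regulators or genes of hormone transport: 4 of the 7 regulators and 2 of the 4 genes of hormone release, uptake and breakdown held one, against 0 of the 7 genes of sterol and electron supply and 0 of the 2 genes of the signal that drives the gland. Read beside the members, 6 of 9 regulators (mld, ecd, vvl, br, cnc and Keap1) and no enzyme of synthesis held an IDR summit within the window. Among these regulators, mld and cnc have windows of 30 to 50 kb, a length at which 51.3% of genes held one, and the window of br is longer. Oatp74D and Atet, the transport genes with an IDR summit, are also longer than every supply and signal gene. Apart from the supply gene Npc1a, every supply and signal gene is also shorter than vvl and Keap1. In contrast, ecd is shorter than the supply genes Npc1a, Npc1b and Start1 and the signal gene tor. The part of gene length in the difference between roles was not tested. Replicate 1 did not separate the roles in this way, since its strongest 3960 peaks reached 2 of the 7 supply genes (Npc1a and Fdx2) as well. These counts describe the lists chosen here and carry no test.

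vvl, which encodes a POU domain factor that acts upstream of the enzyme genes, had its IDR summit at 3L 6789994, 164 bp upstream of its start, with rank 781 and signal value 206.7, at rank 1335 in replicate 1 and 585 in replicate 4. br, the ecdysone-responsive Broad transcription factor, held 3 IDR summits. The strongest, at X 1617182, had rank 780 in the pooled list and 855 in each replicate, but its nearest protein-coding start, at 973 bp, was that of Mur2B. cnc, a basic leucine zipper factor, held 7 IDR summits, of which the strongest, at 3R 23220142 in an intron, had rank 1777. Keap1, the inhibitor of the cnc product, held 3, of which the strongest, at 3R 17078174, was 72 bp from a Keap1 start with rank 1489, and the libraries placed it at rank 3959 in replicate 1 and 779 in replicate 4.

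Of the transport genes, Oatp74D, which encodes the importer that brings ecdysteroids into target cells, had a promoter summit 54 bp into the gene, at 3L 17487172, with rank 1035 and signal value 180.3, at rank 1741 in replicate 1 and 824 in replicate 4. Atet, which encodes a transporter that loads ecdysone into secretory vesicles, had an intronic summit at 2L 4336063 with rank 3108 and signal value 105.0, at rank 1972 in replicate 1 and 5857 in replicate 4. None of the strongest IDR summits of these 6 genes had the consensus within 100 bp. Those of vvl, br, Keap1, cnc and Oatp74D ranked above each of the members' summits.

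Of the genes without an IDR summit, Fdx2 (best pooled rank 4913) and Fdx1 (4993), ferredoxins that pass electrons to mitochondrial enzymes, came nearest to the list. Their ranks were 2443 and 6296 for Fdx2 in replicates 1 and 4, and 5815 and 4483 for Fdx1. The zinc finger gene woc (5411), tor (6909), the receptor for the hormone that stimulates the gland, and the sterol carrier gene Npc1a (7536) followed. No pooled summit lay in the windows of ouib, Npc1b, Start1, Cyp6t3 and Ptth.

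**Figure D5:**
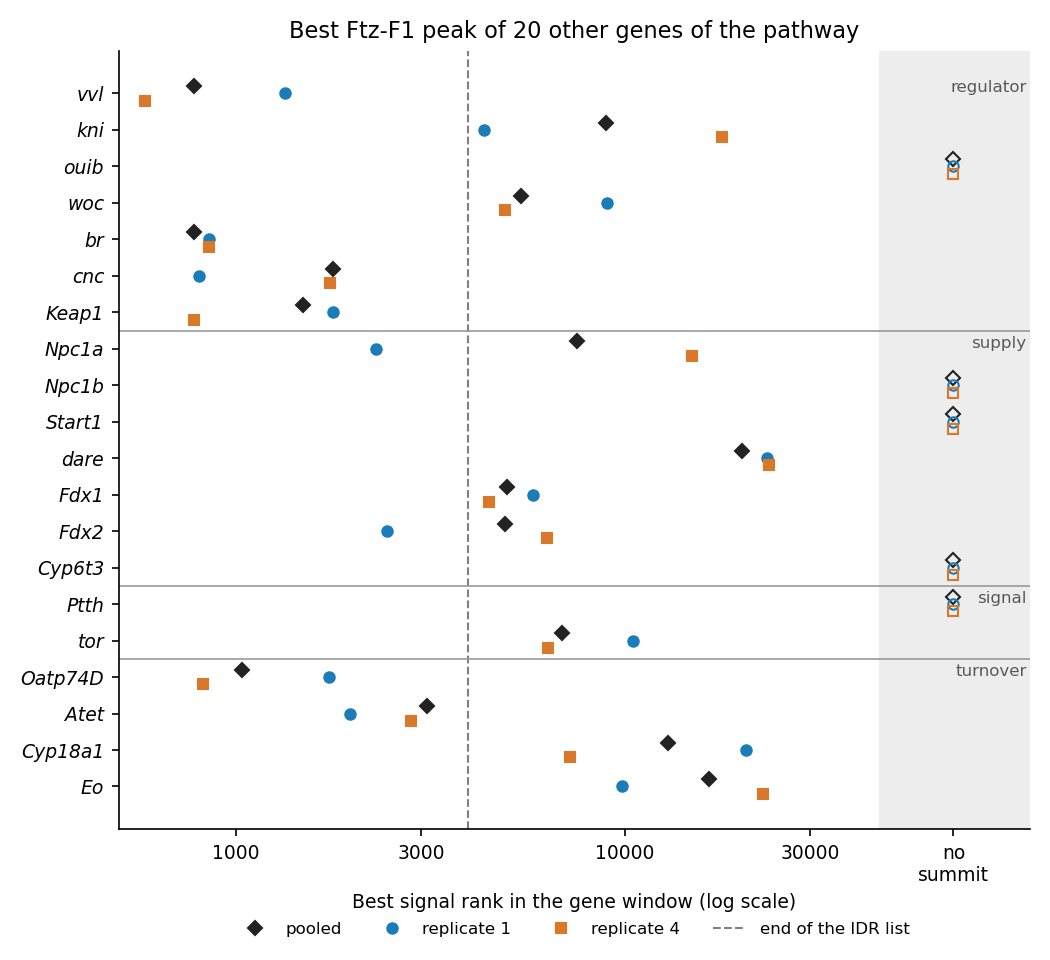
Best signal rank of the 20 other pathway genes in the pooled list and in each replicate list (log axis, lower is stronger), grouped by role, with a dashed line at rank 3960 and a grey zone for windows without a summit. The 6 genes with pooled symbols left of the line are vvl, br, cnc, Keap1, Oatp74D and Atet, and none of the supply or signal genes is among them.

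Of the 37 pooled summits of the members, 13 (35.1%) had a summit within 100 bp in both replicate lists, against 46.2% of all 29999 pooled summits and 92.7% of the IDR list. With 26 of the 37 in mld alone and no test of the difference, nothing particular to the members is read from this share. The best peaks of mld, ecd and shd each ranked higher in replicate 4 than in replicate 1. Taking the strongest 3960 peaks of replicate 4 gave 3 of the 10 members (mld, ecd and shd), against 25.3% of all protein-coding genes. Those of replicate 1 gave mld alone, against 26.7%. These shares carry no test.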

How the data were processed

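Chromatin immunoprecipitation sequencing of tagged Ftz-F1 gave 2 libraries of 1 group. The labels call them biological replicates, and nothing in them says whether the embryos came from separate fly populations, so part of the spread between them may be technical. The authors deposited peak lists in dm6 for each replicate, for both pooled, and after IDR thresholding. The signal values and −log10 q-values in them are the authors' own, and 7579 pooled peaks share the highest deposited −log10 q-value (4.18), so peaks were ranked by signal. The deposited column for p-values holds no p-value in any line and was not used. The listing that the authors deposited describes the input lists as peaks together with background. Not given in the sources used here: aligner, peak caller, control, IDR threshold and depth. The dm3 lists were not used, and no coordinates were converted.

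Gene models came from Ensembl release 115 (BDGP6.54) and sequence from the release 6 reference. As a check of the build, 99.8% of 30593 annotated start codons read ATG. A summit was put in the promoter class within 500 bp of any transcript start. One symbol, phm, was matched through its current name. Analysis used Python 3.11.15, Biopython 1.88 and matplotlib 3.10.9. The scripts were tested on simulated peaks and sites placed at known positions. The text names all 10 members, the other pathway genes with an IDR summit, and for each summit described the protein-coding gene with the nearest start. Pathway genes named for lacking one were chosen after their values were seen. Members and lists were chosen with earlier results of these data known. Alternatives varied the window, the assignment rule, the peak set, the consensus and its search distance, and left out each replicate.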

Additional observations from a re-analysis of the deposited data

How the results depend on the processing

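The call that 2 members, both regulators, and no enzyme held an IDR summit rests on the window and on both replicates. Counting the gene body alone gave 1 member and 1 regulator (mld), and 1799 protein-coding genes in place of 3634. A window with 5000 bp upstream, or assignment to the nearest protein-coding start, added shd, which gave 3 members and 1 enzyme. Of all protein-coding genes, 33.5% held an IDR summit with 5000 bp upstream and 18.9% by the nearest start, in place of 26.1%. The stronger 50% of the IDR list gave 0 members, 0 regulators and 2117 protein-coding genes. Leaving out a replicate, by taking the strongest 3960 peaks of the other, gave 1 to 3 members, 0 to 1 enzymes and 1 to 2 regulators. Without replicate 1 the members were ecd, mld and shd, against 25.3% of all protein-coding genes. Without replicate 4 only mld was left, against 26.7%. The shorter consensus was found at 7 member summits in place of 0 and at 731 of all IDR summits in place of 259, and CAAGGTCA at 159. The cause of these changes was not tested beyond what each setting alters by construction. The count of other pathway genes stayed between 4 and 8 under every setting run, and without replicate 4 it took in Fdx2 and Npc1a. With 5000 bp upstream the best pooled rank of sro was 14785 in place of 29504. Ranking by p-value was not run, since that column holds no values. No paired analysis was possible because there is 1 group. Depth is unknown, so missing peaks set no limit on binding.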
